A study of Mus musculus with 12 samples.

Results

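The promoters of 38 genes that act in germ cells, meiosis or pluripotency were followed by reduced representation bisulfite sequencing (RRBS), which reads CpG methylation in the CpG-rich part of the genome. The libraries came from immortalized mouse embryonic fibroblasts (iMEFs), made from day 13 embryos and immortalized with SV40 DNA. The experimental line was R26M2rtTA/+;TetOcre;Sdhcfl/fl and the control line R26M2rtTA/+;TetOcre;Sdhcfl/wt, so both carried the rtTA transactivator, the doxycycline-driven Cre and at least 1 floxed Sdhc allele. Cre removes exon 4 of Sdhc, which encodes a membrane subunit of succinate dehydrogenase. Both lines received doxycycline at 1 µg/mL, and 1 library per line was made at day 0 (before doxycycline) and at days 5, 9, 12, 16 and 20. Each line was 1 culture followed over time, so the spread between its libraries mixes time points with technical error and is not that of independent cultures, and the p-values below measure only that spread.

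A promoter counted as measured if it held at least 3 cytosines listed in at least 10 of the 12 libraries between 1500 bp upstream and 500 bp downstream of its start site. This held for 28 of the 38 genes, out of 16517 autosomal promoters in all. The 28 promoters held 541 such cytosines, between 5 and 38 each with a median of 20. Dpep3 and Pou5f1 were just inside with 5 each, and Mov10l1 and Brdt just outside with 2 each. Piwil1, Piwil2, Stk31, Syce1, Dmc1, Spo11, Tex15 and Nanog held none. All values below are beta values, the fraction of reads that were methylated at a cytosine, averaged over the cytosines of a promoter in each library.

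In somatic cells of the mouse, a set of germline genes is kept silent by DNA methylation at promoters that hold many CpG dinucleotides, although most CpG-dense promoters stay free of methylation in all tissues. This methylation is laid down after implantation by the de novo methyltransferases and copied at each division by DNMT1. The genes include those of the piRNA pathway, which silences transposons in male germ cells, and those of the synaptonemal complex, which joins homologous chromosomes in meiosis. RRBS measures the methylation only, and no transcript was measured in these libraries.

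The sequences below show what such promoters look like, from 250 bases before the start site to 50 from it on, 5′ to 3′ on the gene's strand, with each CpG in capitals (RefSeq, GRCm38.p6). Tex14 (chr11:87404815-87405114, plus strand) had the highest mean beta and Ddx25 (chr9:35558421-35558720, minus strand) the lowest. Ddx4 (chr13:112652261-112652560, minus strand) and Hormad1 (chr3:95559427-95559726, plus strand) are shown as densely packed promoters with many measured cytosines.
Tex14: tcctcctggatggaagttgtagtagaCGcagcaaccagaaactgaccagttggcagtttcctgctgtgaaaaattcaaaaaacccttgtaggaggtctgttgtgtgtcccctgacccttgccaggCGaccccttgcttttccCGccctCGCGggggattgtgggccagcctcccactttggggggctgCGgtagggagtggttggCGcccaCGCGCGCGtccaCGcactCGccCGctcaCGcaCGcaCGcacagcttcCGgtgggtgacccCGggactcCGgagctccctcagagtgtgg
Ddx4: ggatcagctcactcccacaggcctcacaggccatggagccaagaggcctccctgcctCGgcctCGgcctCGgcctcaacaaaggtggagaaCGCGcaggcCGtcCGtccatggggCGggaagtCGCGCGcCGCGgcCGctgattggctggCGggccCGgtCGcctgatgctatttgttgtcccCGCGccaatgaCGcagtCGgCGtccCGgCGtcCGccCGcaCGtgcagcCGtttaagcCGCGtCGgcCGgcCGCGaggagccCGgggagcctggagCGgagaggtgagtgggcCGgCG
Hormad1: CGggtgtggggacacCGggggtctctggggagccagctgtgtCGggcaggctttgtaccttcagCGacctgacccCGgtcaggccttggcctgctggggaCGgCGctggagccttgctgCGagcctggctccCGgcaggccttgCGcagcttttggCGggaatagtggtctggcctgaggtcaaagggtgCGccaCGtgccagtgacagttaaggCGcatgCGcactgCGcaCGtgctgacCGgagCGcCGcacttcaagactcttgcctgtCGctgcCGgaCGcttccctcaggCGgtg
Ddx25: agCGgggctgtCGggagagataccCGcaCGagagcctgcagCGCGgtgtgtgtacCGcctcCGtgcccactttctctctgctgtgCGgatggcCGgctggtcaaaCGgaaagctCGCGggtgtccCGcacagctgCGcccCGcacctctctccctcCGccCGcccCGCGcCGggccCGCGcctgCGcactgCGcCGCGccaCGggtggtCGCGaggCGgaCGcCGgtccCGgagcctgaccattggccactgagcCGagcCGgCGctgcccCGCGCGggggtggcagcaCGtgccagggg

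These 300 bases held 20 CpG in Tex14, 38 in Ddx4, 24 in Hormad1 and 41 in Ddx25. In Ddx4, 23 measured cytosines, on 16 of the 38 CpG, fell in the printed bases and their mean beta over the libraries was 0.879. In Hormad1, 19 on 16 CpG fell there with a mean of 0.872. In Ddx25, 21 on 18 CpG fell there with a mean of 0.0690. Ddx4 and Ddx25 thus had almost the same number of CpG and lay at opposite ends of the methylation scale. In Tex14 a single measured cytosine fell in the printed bases, at beta 1 in every library that listed it, and the other 8 lay downstream.

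The germline and pluripotency promoters were far more methylated than promoters in general. Their median beta over all 12 libraries was 0.864, against 0.0353 over all promoters. Of the 28, 19 lay above 0.8 (67.9%, against 7.94% of all promoters), 7 lay between 0.2 and 0.8, and 2, Ddx25 and Stag3, lay below 0.2. The 28 were drawn up with their methylation known from these data, so these counts describe the list and are not a test of it. The median over the 28 was between 0.848 and 0.915 in the 6 experimental libraries and between 0.829 and 0.886 in the 6 control libraries, so the lines overlapped.

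**Figure D1:**
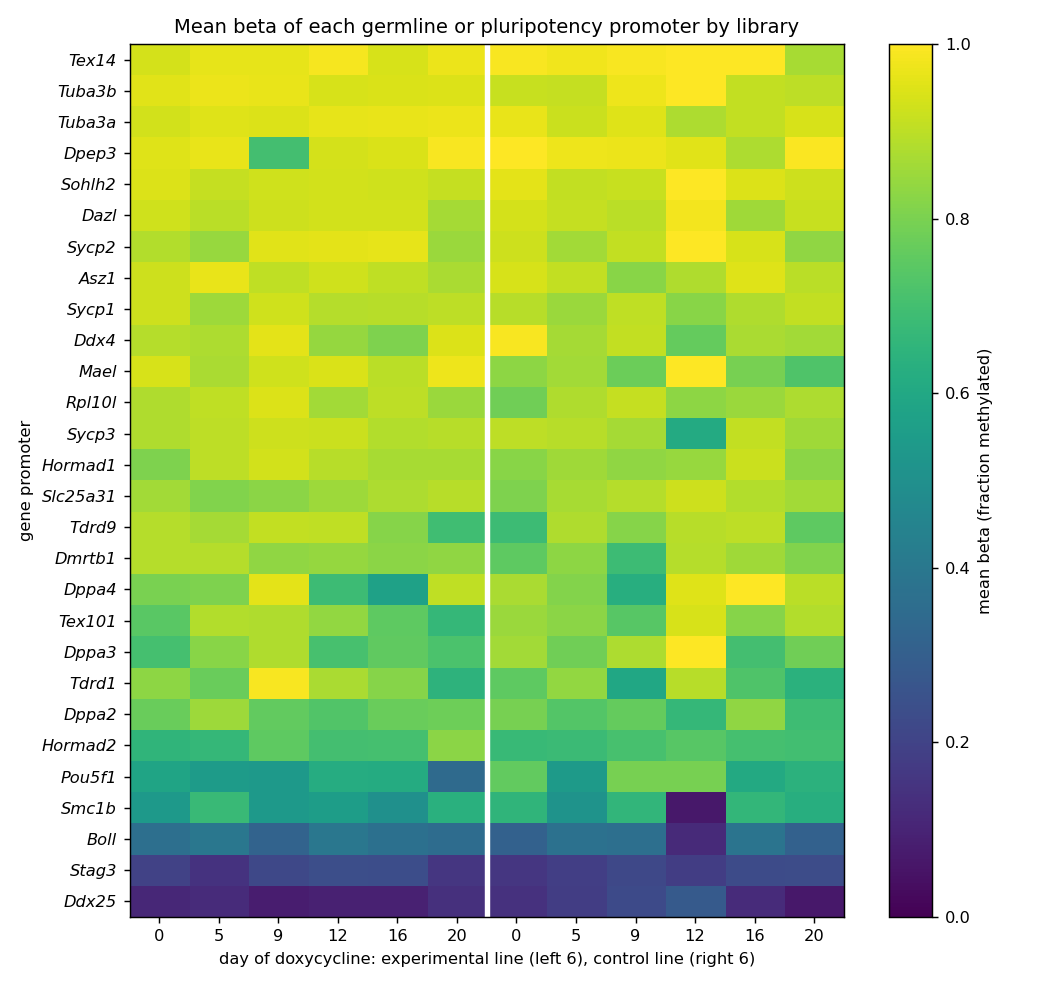
Mean beta (colour, fraction methylated) of the 28 measured promoters (rows, ordered by their mean) in the 6 experimental and the 6 control libraries (columns, by day of doxycycline). The top 19 rows lie above 0.8 on average over the 12 libraries, and the bottom 3 rows, Boll, Stag3 and Ddx25, have the lowest means.

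Many of these promoters were methylated although they held many CpG. The 300-base sequence was given for 25 of the 28 measured promoters (not for Dppa2, Dppa3 and Dppa4) and for 13396 promoters in all. The 25 held a median of 17 CpG in 300 bases (9 to 41), against 20 over all. Among the 11 with at least 20 CpG, 7 had a mean beta above 0.8, where 27 of 6851 such promoters (0.394%) did over the whole series. The 7 were Dazl, Ddx4, Hormad1, Mael, Slc25a31, Sycp1 and Tex14. Beta here is the mean over the whole window from 1500 bp upstream to 500 bp downstream, while CpG were counted in the 300 bases. Within the 300 bases the 7 averaged from 0.846 (Mael) to 1.00 (Tex14, on 1 cytosine). Smc1b averaged 0.222 there, against 0.552 over the window, and no measured cytosine of Stag3 or Tdrd1 fell there. Among promoters of the list with 15 to 19 CpG, 5 of 6 lay above 0.8 (2.35% of all), and among those with 10 to 14 CpG, 5 of 7 did (7.27% of all). As the list was drawn up with its methylation known, these shares too describe it and are not a test.

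**Figure D2:**
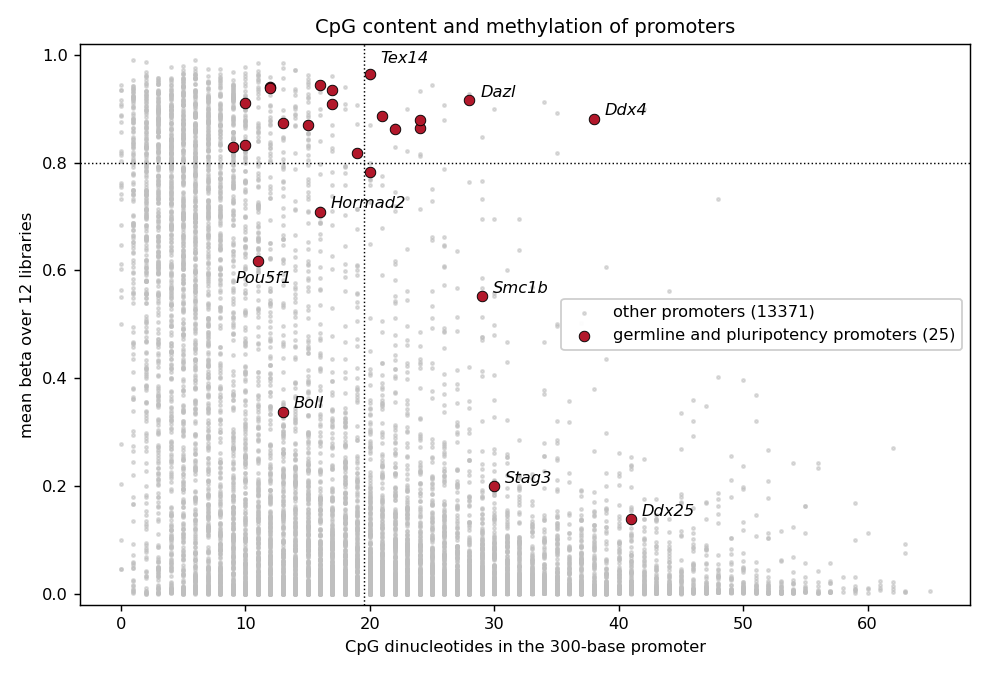
CpG dinucleotides in the 300-base promoter (x axis) against mean beta over 12 libraries (y axis) for 25 germline and pluripotency promoters (red) and 13371 other promoters (grey). Beta is the mean over the window from 1500 bp upstream to 500 bp downstream, not over the 300 bases. Dotted lines mark beta 0.8 and the border of 20 CpG. In the upper right field 7 of the 27 promoters are red, while Stag3 and Ddx25 lie at the bottom with the other CpG-dense promoters.

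A pair of short motifs that hold a CpG were searched for on both strands of the 300 bases. CACGTG, an E-box, was found in 11 of the 25 promoters (44%), against 9.79% of all promoters. GCGGGA, the core of E2F sites, was found in 13 (52%), against 34.4% of all. Both occurred together in 8 (32%), against 3.69% of all. Matches of the 2 motifs can share at most 1 base, at their ends. Most matches held no measured cytosine. In Hormad1, the E-box starting at -57 bp held a cytosine with a mean beta of 0.759, and the E-box at -20 bp one at 0.880. In Sycp1 the E-box at -94 bp was at 0.961. In Boll and Ddx25, whose promoters were mostly unmethylated around the start site, the E-boxes at -9 and 37 bp were at 0.0750 and 0.0402. The 4 E2F matches with measured cytosines were at 0.958 (Ddx4), 0.914 (Slc25a31), 0.651 (Hormad1) and 0.107 (Ddx25, 2 cytosines).

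Among piRNA pathway and germ granule genes, 5 of 9 were measured, and all but Tdrd1 lay above 0.8. Asz1, which anchors the pathway at mitochondria, was the highest, at 0.915 ± 0.034 (SD, n = 5) in the experimental line at days 5 to 20 and 0.900 ± 0.046 (n = 6) in the control line. Ddx4, the germ cell RNA helicase Vasa, was at 0.885 ± 0.065 and 0.878 ± 0.073, and its control libraries ran from 0.765 (day 12) to 0.990 (day 0). These libraries listed 14 (day 12) and 10 (day 0) of its 27 cytosines, and no Ddx4 cytosine was listed in all 12 libraries. The lines did not separate for either gene. Mael, a germ granule protein needed for transposon silencing, was at 0.923 ± 0.039 in the experimental and 0.831 ± 0.095 in the control line, and its 6 control libraries ran from 0.724 over a median of 0.814 to 1.00. The control library at 1.00, from day 12, listed 5 of the 18 Mael cytosines, and the other 5 control libraries lay below every experimental library, from 0.724 to 0.863 against 0.874 to 0.974. Over the 5 Mael cytosines that all 12 libraries listed, the lines overlapped, with 0.865 to 1.00 in the control and 0.924 to 1.00 in the experimental libraries. These 5 lay farther downstream, since the control library of day 12 listed none within 100 bp of the start. At the 11 Mael cytosines within 100 bp the lines did not overlap. There the experimental libraries ran from 0.828 to 0.967, with day 0 at 0.916. The 5 control libraries that listed them ran from 0.589 to 0.778. This stretch was not tested by itself. Tdrd9, a helicase of the pathway, was at 0.888 in the experimental and 0.685 in the control library of day 0, and later libraries overlapped (0.694 to 0.907 against 0.751 to 0.901). Tdrd1, a tudor-domain scaffold for PIWI proteins, was the lowest, and ranged widely in both lines, from 0.648 to 0.989 in the experimental and from 0.596 to 0.895 in the control line. The 0.989 rested on 7 and the 0.895 on 4 of its 10 cytosines.

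In the synaptonemal complex and chromosome axis group, 5 of 6 genes were measured. Sycp2, a lateral element protein, was the highest with 0.914 ± 0.060 in the experimental and 0.911 ± 0.059 in the control line. Sycp1, the transverse filament protein, was at 0.892 ± 0.026 and 0.876 ± 0.034, and Hormad1, an axis protein that promotes recombination, at 0.892 ± 0.026 and 0.851 ± 0.035. Each of the 3 overlapped between the lines. For Hormad1 the overlap with experimental days 5 to 20 (0.868 to 0.931) came from the control library of day 16, at 0.918. That library listed 15 of the 26 Hormad1 cytosines, and the other control libraries lay from 0.823 to 0.856. Over the 14 that all 12 libraries listed, the lines overlapped, with 0.790 to 0.930 in the control and 0.862 to 0.933 in experimental days 5 to 20. Sycp3, the other lateral element protein, lay between 0.880 and 0.922 in the experimental libraries and between 0.856 and 0.908 in 5 control libraries, with the control library of day 12 apart at 0.610. That library listed 14 of the 21 cytosines of Sycp3. Over the 7 that all 12 libraries listed it stood apart as well, at 0.506 against 0.893 to 0.989 in the other control libraries. Hormad2, a relative of Hormad1, was the lowest of the group, with 0.729 ± 0.061 and 0.702 ± 0.024.

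The 2 meiotic cohesin promoters each held stretches of high and of low methylation. Smc1b, the meiotic form of the SMC1 subunit, held 6 cytosines from -275 to -178 bp with a mean beta of 0.212 and 10 from 127 to 285 bp with a mean of 0.820. The upstream stretch lay between 0.0630 and 0.423 in the 12 libraries and the downstream stretch between 0.688 and 0.990 in the 11 that listed it, so the stretches did not overlap. The control library of day 12 listed none of the downstream cytosines, and its promoter mean was 0.0630 where the other control libraries lay between 0.514 and 0.660. Stag3, the meiotic SA subunit, had 20 cytosines from -1003 to -405 bp near 0, with a mean of 0.0203 and library means of 0 to 0.0779. Its 4 cytosines from 262 to 465 bp averaged 0.896 (0.659 to 1.00 by library), and the other 2, at -1442 and -1403 bp, averaged 0.737 with library means of 0 to 1.00. Its low promoter mean, 0.199 ± 0.044 in the experimental and 0.201 ± 0.030 in the control line, therefore joins stretches of low and of high methylation. These borders were set after the values were seen.

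The RNA-binding group ranged from a highly methylated promoter, Dazl, to the lowest of all 28, Ddx25. Dazl, a germ cell translation regulator, was high at 0.910 ± 0.028 in the experimental and 0.917 ± 0.042 in the control line, over 37 cytosines from -618 to 417 bp. Boll, its relative in the same family, was at 0.367 ± 0.033 and 0.310 ± 0.10. Within Boll, beta was higher farther downstream: the 3 cytosines from -30 to 17 bp averaged 0.153, the 28 from 252 to 371 bp 0.280, and the 7 from 376 to 421 bp 0.699. These borders, like those given for Ddx25 below, were set after the values were seen. The control library of day 12 was the lowest for Boll at 0.118, and it listed none of the cytosines of the first and the last stretch. Ddx25, a testis RNA helicase, was at 0.105 ± 0.025 and 0.170 ± 0.078, with experimental libraries from 0.0783 to 0.139 and control libraries from 0.0637 to 0.285. Over its 16 cytosines that all 12 libraries listed, of which 14 lay from 10 to 94 bp, the lines were at 0.0865 and 0.0837. The 14 Ddx25 cytosines from 10 to 94 bp averaged 0.0692 and the 15 from -157 to -79 bp 0.0974. Its 9 from 97 to 141 bp averaged 0.296 and ran from 0 to 0.778 by library. The 0 was the experimental library of day 20, which listed 2 of the 9. At these 9 the experimental line at days 5 to 20 was at 0.178 ± 0.126 and the control line at 0.407 ± 0.254. The libraries of the lines overlapped there, and this stretch was not tested by itself.

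**Figure D3:**
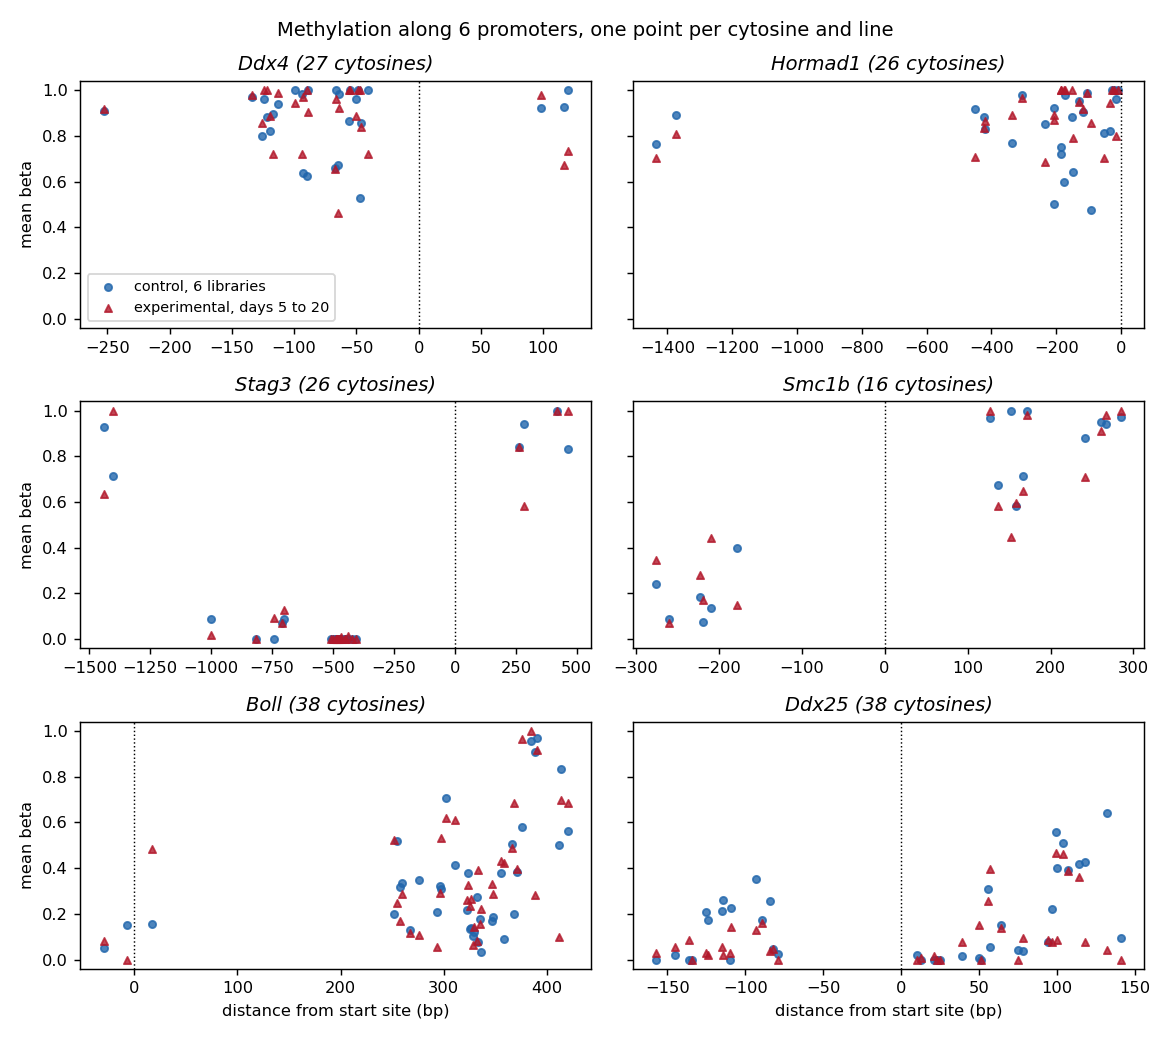
Mean beta (y axis) of each measured cytosine against its distance from the start site in bp (x axis; dotted line at the start) in 6 promoters, for the control line (blue circles, up to 6 libraries) and the experimental line at days 5 to 20 (red triangles, up to 5 libraries). In Ddx4 22 of 27 cytosines and in Hormad1 19 of 26 lie above 0.8, with the lowest at 0.542 and 0.651, Smc1b is low upstream and high downstream, Stag3 is so too apart from 2 cytosines far upstream, and Ddx25 is lowest around the start, with higher values from 97 bp on.

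Of the germ cell transcription and chromatin genes, 2 of 3 were measured. Sohlh2, a helix-loop-helix factor of early germ cells, was at 0.922 ± 0.010 and 0.943 ± 0.034. Dmrtb1, a DM domain factor of spermatogonia, was at 0.845 ± 0.025 and 0.804 ± 0.074, and at day 0 at 0.889 in the experimental and 0.752 in the control library. Its control libraries ran from 0.685 to 0.889, and the highest, from day 12, listed 9 of its 19 cytosines. Neither separated the lines.

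All 7 genes of sperm and spermatocyte structure and metabolism lay above 0.8. Tex14, which keeps intercellular bridges between germ cells open, was the highest of all 28, at 0.965 ± 0.017 and 0.971 ± 0.050. Tuba3a and Tuba3b, testis alpha-tubulins, were at 0.959 ± 0.010 and 0.927 ± 0.031, and at 0.953 ± 0.013 and 0.936 ± 0.042. The genes are close relatives, and their 300-base promoters differed, with 12 and 16 CpG. Dpep3, a testis membrane dipeptidase, was at 0.907 ± 0.117 and 0.962 ± 0.044, and its experimental library of day 9 stood apart at 0.702. Rpl10l, an autosomal copy of a ribosomal protein gene, was at 0.893 ± 0.038 and 0.855 ± 0.044, and Slc25a31, the germ cell ADP/ATP carrier, at 0.852 ± 0.034 and 0.872 ± 0.038. Tex101, a germ cell surface protein, was the lowest of the group at 0.804 ± 0.093 and 0.843 ± 0.067, with 0.742 in the experimental and 0.848 in the control library of day 0. The lines overlapped for all 7.

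Of the pluripotency promoters 4 of 5 were measured, with mean betas from 0.617 to 0.824 over the 12 libraries. At such middling values, methylation of part of the cells and of part of the alleles or cytosines in each cell cannot be told apart. Dppa4, which marks pluripotent and early germ cells together with Dppa2, was the highest, and its libraries ran from 0.573 over a median of 0.802 to 0.960 in the experimental and from 0.627 over 0.885 to 1.00 in the control line. The control library at 1.00, from day 16, listed 5 of the 7 Dppa4 cytosines. Dppa2 was at 0.778 ± 0.047 and 0.747 ± 0.063. Dppa3 (Stella), which protects the maternal genome from demethylation, was at 0.777 ± 0.072 and 0.834 ± 0.104, and at day 0 at 0.705 in the experimental and 0.861 in the control library. Its libraries ran from 0.705 to 0.879 in the experimental and from 0.700 to 1.00 in the control line. Both control extremes, from days 16 and 12, rested on 3 of its 6 cytosines. The control libraries that listed all 6 ran from 0.782 to 0.879. The lines overlapped for these 3.

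Pou5f1, which encodes OCT4, was the lowest of the group and the member whose lines lay farthest apart in mean beta over the series. In the experimental line its beta was 0.583 at day 0 and then 0.550, 0.542, 0.621, 0.617 and 0.345 at days 5, 9, 12, 16 and 20. In the control line it was 0.762, 0.546, 0.794, 0.795, 0.608 and 0.642. The lines overlapped, and the experimental library of day 0 was already 0.178 lower than the control library of day 0. Over the series, the experimental line at days 5 to 20 was at 0.535 ± 0.112 (SD, n = 5) and the control line at 0.691 ± 0.106 (n = 6). On the M-value scale, log2((beta + 0.01) / (1 - beta + 0.01)), the experimental line differed from the control line by -0.99 (SE 0.40, 95% interval -1.86 to -0.12) and the adjusted p in limma was 0.244 (unadjusted 0.0292). Without the experimental library of day 20 the difference was -0.72. The 5 cytosines of Pou5f1 lay from 44 to 145 bp downstream of the start. The first 2 were the 2 strands of 1 CpG, with 0.471 as the lower and 0.553 as the higher mean beta. At the first, at 44 bp, the experimental libraries of days 5 to 20 ran from 0.105 to 0.387 and the control libraries from 0.50 to 1.00 (adjusted p in limma 0.209), and the experimental library of day 0 was at 0.304. The cytosine at 95 bp was high in both lines, at 0.874 and 0.945.

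The experimental line at days 5 to 20 was compared with the control line. This asked whether the lines differed in promoter methylation, not whether methylation changed once Sdhc had been deleted. A difference present before doxycycline counts in full. None of the 28 promoters passed an adjusted p of 0.05 in limma, with 1.9% of the 16452 tested promoters called. At an unadjusted p under 0.05, 2 of the 28 were called, Pou5f1 and Tuba3a, against 16% of all promoters. Tuba3a differed by 0.70 (SE 0.30, 95% interval 0.03 to 1.36, adjusted p in limma 0.287), with the experimental line higher. None of the 28 had lines that did not overlap (4.29% of all promoters did). The median M-value difference over the 28 was 0.11 and over all promoters 0.18. The median absolute difference in beta was 0.0351 over the 28. A missed threshold does not show that the lines were equal. The 95% intervals left room for a difference of more than 1 in M-value in most members. Among them were Dppa4 with an interval of -3.21 to 1.20 and Mael with -1.07 to 2.71.

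**Figure D4:**
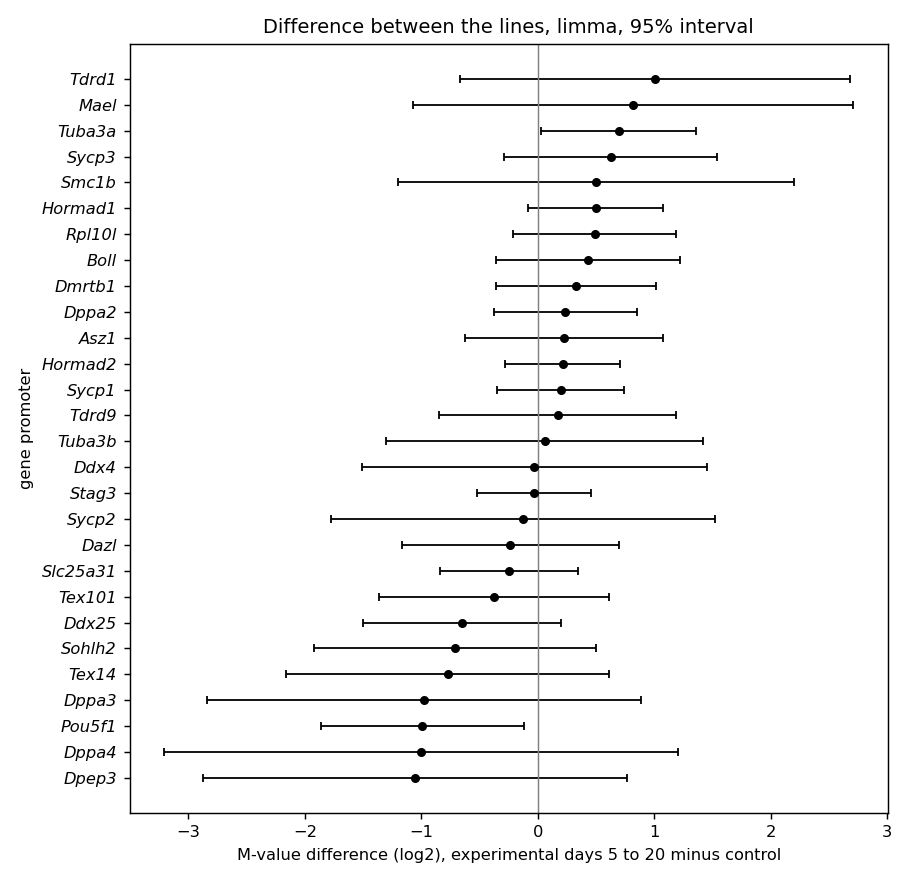
Difference in M-value (log2 scale, x axis) between the experimental line at days 5 to 20 (5 libraries) and the control line (6 libraries) for the 28 promoters (y axis), from limma with 95% intervals (bars). Only the intervals of Pou5f1 and Tuba3a leave out 0, on opposite sides, and neither passed the adjustment over all promoters.

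No promoter of the 28 passed the test of a trend over the 20 days. The slope over days passed an adjusted p of 0.05 in limma for 0 of the 28 in the experimental line and for 0 in the control line (0% of all promoters in each), and at an unadjusted p under 0.05 for 1 of 28 and 0 of 28 (4.21% and 5.62% of all). The 1 was Hormad2, whose M-value slope in the experimental line came to 1.00 over 20 days (SE 0.40, unadjusted p in limma 0.0312, adjusted p 1.00). Its beta there was 0.653 at day 0 and 0.825 at day 20. The difference between the slopes of the lines passed for 0 of 28 (0% of all), and at an unadjusted p under 0.05 for Tuba3a alone (unadjusted p in limma 0.0453; 4.19% of all). At day 0, with 1 library per line and no test, the lines differed by at least 0.1 in 8 promoters, against 16.8% of all promoters: Tdrd9, Dmrtb1 and Mael were higher in the experimental library, and Pou5f1, Dppa3, Smc1b, Tex101 and Ddx4 lower. For Ddx4, the control library of day 0 listed 10 of the 27 cytosines. Among promoters with a mean beta above 0.2, the share was 30.8% of 26 members and 47.9% of all 4411.

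**Figure D5:**
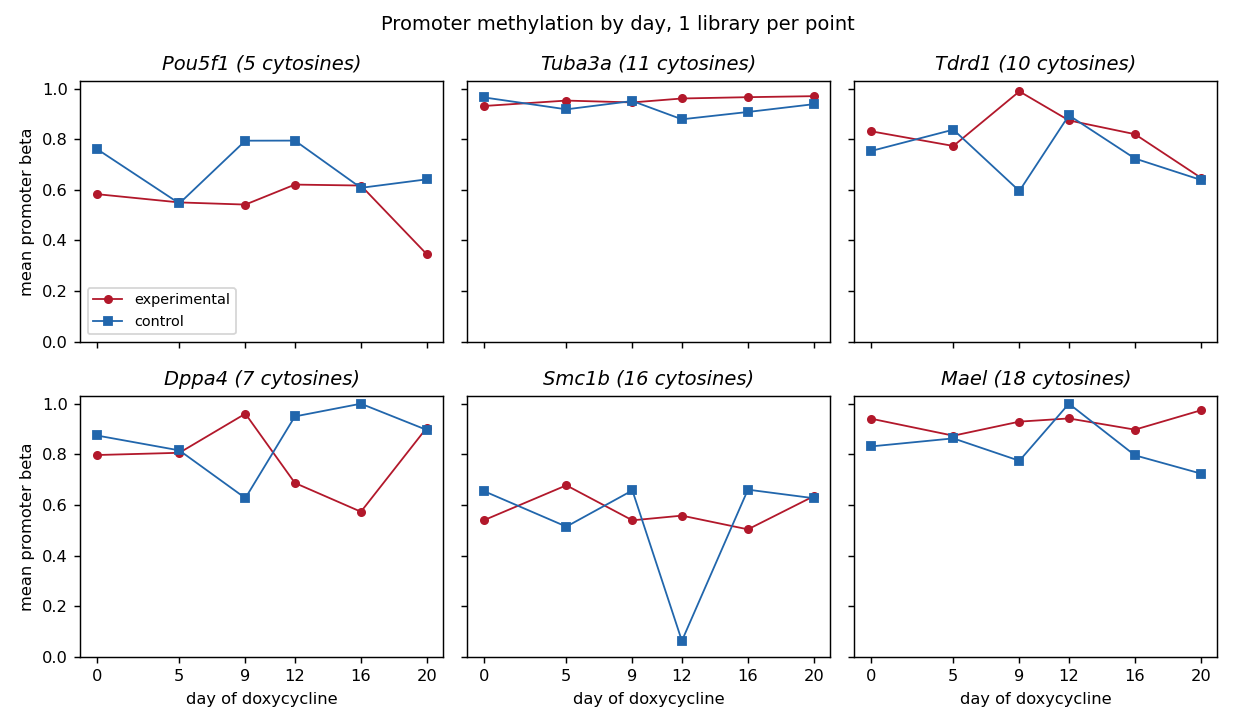
Mean promoter beta (y axis) by day of doxycycline (x axis) in the experimental (red circles) and the control line (blue squares), 1 library per point, for 6 promoters with the larger differences or ranges. Pou5f1 differs at day 0 already, Tuba3a stays above 0.87 in every library, and the dip of Smc1b is the control library of day 12, which listed 6 of its 16 cytosines.

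Single cytosines were tested in the same way. Of the 541 cytosines in the 28 promoters, 38 had the same value in every library that listed them, and 503 entered the fit with all other autosomal cytosines. None of the 503 passed an adjusted p of 0.05 in limma (0.477% of all cytosines did), and 46 had an unadjusted p under 0.05 (9.15%, against 10.6% of all), 26 of them higher in the experimental line. In simulated data the fit over cytosines called some of the larger changes placed in the least variable cytosines and few others, so a missing call says little about a single cytosine. In 9 of the 503 the lines did not overlap (1.79%, against 2.08% of all cytosines). The lowest adjusted p was that of a cytosine of Sohlh2 337 bp downstream of the start, at 1.00 in the experimental and 0.888 in the control line (adjusted p in limma 0.0672). A cytosine of Tuba3a at 16 bp was at 0.988 and 0.801 (adjusted p 0.0757). One of Mael at -56 bp was at 0.935 and 0.414 (adjusted p 0.0993), with 0.833 to 1.00 in the experimental libraries of days 5 to 20 and 0.182 to 0.652 in the 5 control libraries that listed it, and the experimental library of day 0 at 1.00. Neighbouring cytosines could differ in opposite directions: in Boll, those at 359 and 368 bp had higher means in the experimental line (0.423 against 0.0923 and 0.687 against 0.199), and the one at 389 bp a lower mean (0.283 against 0.910), none past the adjusted threshold.

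Other genes of the same pathways were mixed. Of 11 further piRNA pathway genes, 2 lay above 0.8 and 3 below 0.2, from Mybl1, the transcription factor A-MYB, at 0.00470 to Tdrd12 at 0.944. Of 15 further meiosis genes, 5 lay above 0.8 and 5 below 0.2, from Trip13 at 0.00319 to Msh4 at 0.958. None of these 26 passed the test between the lines. Of 17 further pluripotency genes, 4 lay above 0.8 and 9 below 0.2, from Klf2 at 0.00473 to Lefty1 at 0.889, and 2 of the 17 passed the test, both higher in the experimental line (1.42% of all promoters). Zfp42, which encodes the pluripotency marker REX1, lay between 0.870 and 0.925 in the experimental libraries of days 5 to 20 and between 0.745 and 0.839 in the control libraries, with 0.890 and 0.745 at day 0 (M-value difference 1.25, SE 0.22, adjusted p in limma 0.0211). Tbx3, a T-box factor, was at 0.126 ± 0.012 and 0.0579 ± 0.0230, with 0.121 and 0.0614 at day 0 (difference 1.17, SE 0.25, adjusted p 0.0402). For both, the difference was thus present in the day 0 libraries. The call of Zfp42 was lost in 4 of the 11 fits that left out 1 library, and that of Tbx3 in 10 of 11.

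For the cell type, promoters of 9 of 18 fibroblast markers were measured. They lay below 0.2 in 6 (66.7%, against 73.0% of all promoters), among them Vim and Fn1, while Col1a2 was at 0.764. By this count the fibroblast markers did not stand out from promoters in general. Those of 12 housekeeping genes lay below 0.2 in 11, all but Actb, and those of 6 epithelial markers between 0.0935 and 0.479. No promoter of the 6 blood cell markers was measured. The libraries listed between 909162 and 1673954 autosomal cytosines, the fewest in the control library of day 12, which listed 353 of the 541 cytosines used here. The files give no read counts. The share of these cytosines at exactly 0 or 1 ran from 47.9% to 84.4% over the libraries and was highest in the control library of day 12.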

How the data were processed

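DNA methylation was measured by reduced representation bisulfite sequencing in 12 libraries. Paired-end reads had been mapped by the authors with Bismark (mm10), who deposited the percent of methylated reads for each cytosine in a CpG, with no read counts, so depth is unknown and no interval for a single value is given. Percents were divided by 100 (beta). A promoter began 1500 bp before and ended 500 bp after the most upstream RefSeq start site (GRCm38.p6, the mm10 assembly) or, without an entry there, of the RefSeq gene end. Autosomal cytosines listed in at least 10 of 12 libraries were averaged where a promoter held at least 3. Promoters with the same value in every library (65) were left out, a choice made after results had been seen, and M-values, log2((beta + 0.01) / (1 - beta + 0.01)), of the other 16452 were fitted with limma 3.58.1 in R 4.3.3, two-sided, with Benjamini-Hochberg adjustment over all promoters and a threshold of 0.05. As in the methods of the study, the control line (6 libraries) was compared with experimental days 5 to 20 (5 libraries), and slopes over days were fitted on all 12. A similar fit was made over 934971 single cytosines that varied. The fits were tested on simulated data, with M-value changes of 2 and 4 placed between the lines in rows of middling mean methylation. The promoter fit called 51 and 72 of 100, and the cytosine fit 0 and 3 of 100. Both called more among the least variable promoters or cytosines, the cytosine fit only at a change of 4. The member differences were smaller, the largest being -1.05 in Dpep3, and changes of that size were not simulated. Figures were drawn with matplotlib 3.10.9. Members and gene lists were chosen with earlier results of these data known. Promoters were described by library if they passed a test, if the lines differed by at least 0.1 over the series or at day 0, or if a line ranged over at least 0.2. The highest and lowest promoter of each role, and the cytosine with the smallest p in some of the promoters, were also named. From the other lists the highest and lowest gene and any past the threshold were taken. Sequences were taken for the highest and lowest promoter; Ddx4 and Hormad1 were added after their values were seen.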

Additional observations from a re-analysis of the deposited data

Results flagged for a closer look

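In 9 of the 56 groups of libraries tested (each of the 28 promoters in the control line and in the experimental line at days 5 to 20), 1 library stood apart from the others of its line by Dixon's criterion. For normally distributed values the criterion flags about 1 in 20 groups by chance. These betas are bounded at 1 and often average different cytosines by library, so the 9 cannot be set against that share. The control library of day 12, which listed the fewest cytosines, stood apart in 3: Sycp3 at 0.610 (the others 0.856 to 0.908), Smc1b at 0.0630 (the others 0.514 to 0.660) and Boll at 0.118 (the others 0.309 to 0.387). The control library of day 16 stood apart in Dpep3 at 0.878 (the others 0.955 to 1.00) and in Hormad1 at 0.918 (the others 0.823 to 0.856). The control library of day 20 did so in Tex14 at 0.870 (the others 0.978 to 1.00). In the experimental line, these were day 5 in Dmrtb1 at 0.889 (the others 0.828 to 0.841), day 9 in Dpep3 at 0.702 (the others 0.934 to 0.990) and day 20 in Pou5f1 at 0.345 (the others 0.542 to 0.621). Dpep3 and Pou5f1 rest on 5 cytosines each, all listed in every library. What set these libraries apart was not tested.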

How the results depend on the processing

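No promoter of the 28 was called between the lines in limma under any alternative (582 fits of a member in all, those that left out 1 library included), and none was called for a slope. The sign of an uncalled difference changed in 37 of the 582 fits, over 11 of the 28 members. Over all promoters, 313 were called between the lines, 525 with the experimental library of day 0 included and 104 to 379 when 1 library was left out, fewest without experimental day 5 and most without control day 12; the cause was not tested. Over all cytosines, 4462 were called, 6925 on beta values and 3647 to 5818 when 1 library was left out. In the 28 promoters 0 cytosines were called, 1 (Mael at -56 bp) with an offset of 0.05 and 1, the same, on beta values, and 0 to 4 when 1 library was left out. The 4, without experimental day 16, lay in Mael, Tuba3a, Ddx25 and Ddx4, and 1 or 2 were called without experimental day 5 or 9 or control day 0, 9 or 20. The median beta of the members in the control line was 0.847, and 0.882 over cytosines listed in all 12 libraries, which fewer promoters hold; leaving out 1 library gave 0.843 to 0.852. With the day as a replicate block, 2 promoters and 0 cytosines were called. The days share only a number: the correlation of same-day deviations from the line means over promoters ran from -0.0258 to 0.0132, and not every library was closest to its own day. The call of Zfp42 was also lost over cytosines listed in all 12 libraries, with the block and with a trended robust prior (adjusted p 0.272, 0.158 and 0.122), and that of Tbx3 with promoters from 500 bp upstream, the block and that prior (0.204, 0.185 and 0.0641). Leaving out promoters and cytosines with the same value in every library was decided after results had been seen; with them kept, 332 promoters and 3186 cytosines were called, and 0 members and 0 of their cytosines. The promoters' start at the RefSeq gene end was also added after seeing the data. Depth is unknown, so the precision of a single beta cannot be given.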

Other observations

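Of the 10 genes left out for too few shared cytosines, some had cytosines listed in fewer libraries. Brdt, a testis bromodomain protein, had at least 3 listed cytosines in 10 libraries, with promoter means from 0.846 to 1.00. Mov10l1, a helicase of the piRNA pathway, had them in 10 libraries, with means from 0.680 to 1.00. Tex15, a meiosis gene with a role in transposon silencing, had 7 to 25 listed cytosines in 11 libraries, and its means ran from 0.20 over a median of 0.524 to 0.857. The cytosines behind these means differ between libraries, so the means were not compared.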
